A study of Mus musculus with 30 samples.

Results

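The 38 genes described here drive and carry out the cell division cycle, and were measured in whole mouse heart by 3′ mRNA sequencing. They were taken from a list of symbols, with no threshold on their values. All 38 were found in both deposited tables, among 78258 genes of the postpartum study and 56691 genes of the diet study. By role, 8 act in G1 and at the entry into S phase, 10 replicate DNA or supply nucleotides, and 20 act in G2, mitosis and cytokinesis. A level filter, set by edgeR's filterByExpr, left 28 of the 38 for testing in the postpartum study, and 21 were tested in the diet study. It asks for about 10 reads in a library of median depth, or 3.51 counts per 1000000 reads in the postpartum study. That level must be reached in at least as many libraries as the smallest group holds, counted over all groups. Not tested in the postpartum study were 10 genes, Ccne2, E2f1, Rrm2, Ccnb1, Aurka, Aurkb, Bub1, Kif11, Kif20a and Anln.

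A dividing cell passes G1 with the help of D-type cyclins, which bind CDK4 and CDK6 and inactivate the retinoblastoma protein, so that E2F factors switch on the genes of DNA replication. CDK1 with cyclins A and B then drives the cell through G2 into mitosis, where spindle motors, kinetochore proteins and checkpoint kinases separate the chromosomes. Most cardiomyocytes of the adult mouse heart have left the cycle, and the dividing cells of the organ are mainly non-myocytes such as macrophages, fibroblasts and endothelial cells.

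The hearts came from wild-type (WT) mice and from mice carrying the p.S55L change in CHCHD10, a protein of the mitochondrial intermembrane space. Mice with this change are known to develop a mitochondrial cardiomyopathy. Naive mice of both genotypes were killed at an age of 100 days, and PP mice of both genotypes had been mated at 65 days of age and were killed on postpartum day 0. In a second study all mice were S55L PP mice, fed either a control diet or one containing EH301, a mixture of nicotinamide riboside and pterostilbene, while breeding. Each group has 5 deposited columns. Columns 1 and 2 of WT PP held identical counts, as did columns 1 and 2 of S55L PP, and each pair was counted as 1 library. One column was deposited identically under both diets and was left out of both. The comparisons therefore rest on 5 WT naive, 4 WT PP, 5 S55L naive, 4 S55L PP, 4 control diet and 4 EH301 diet libraries. Strain, zygosity, the sex of the naive mice and whether each library is a separate mouse are not given in the sources used here, so each p-value reflects only how much these libraries vary, and that variation may be technical.

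Reads on genes numbered 1418715 to 2949993 per WT library and 2755500 to 5131316 per S55L library of the postpartum study, and 466651 to 3048461 in the diet study. Depth and genotype moved together, as did the share of alignments counted on a gene, 58.3% to 61.6% in WT and 66.3% to 69.2% in S55L libraries. So did position on the library plate, read from the well code in the column names: WT libraries lay in plate column 1, except for WT PP 1, which lay in column 2 with part of the S55L libraries. Genotype and plate column could be separated only through that overlap. The S55L naive libraries lay in column 2, and the S55L PP libraries in column 3, except for S55L PP 5, which lay in column 2. Levels are given as CPM, the counts per 1000000 TMM-scaled reads, and listed in the order of the replicate numbers, which are 1 to 5 in naive groups and 1, 3, 4 and 5 in PP groups. Whole heart cannot tell more cells of a type from more RNA per cell. The Chchd10 transcript was present in every library, and a 3′ count of it does not read the mutated codon.

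Promoter sequences of 5 of the genes are shown first, because the 3 roles differ in the short motifs that lie near their start sites. They come from RefSeq (GRCm38.p6, a different build from that of the counts) and run from 250 bases before to 50 bases after the annotated start, 5′ to 3′ on the gene's strand, with capitals marking every match to 3 motifs on either strand. The motifs are the cell cycle homology region or CHR (TTTGAA), the CCAAT box (CCAAT), and an E2F core spelled as TTCCCGC or as TTGGCGC or as TTCGCGC or as TTGCCGC, and neighbouring matches can overlap. CHR and CCAAT elements are bound by the DREAM and MuvB complexes and by NF-Y and are typical of late cell cycle genes, and E2F sites are typical of S phase genes. Cdk1, at chr10:69352863-69353162 on the minus strand, holds all 3 motifs. Bub1b, at chr2:118597961-118598260 on the plus strand, and Cenpf, at chr1:189688037-189688336 on the minus strand, hold CHR and CCAAT matches. Mcm3, at chr1:20820263-20820562, and Mcm6, at chr1:128359656-128359955, both on the minus strand, hold CCAAT and E2F matches.
Cdk1: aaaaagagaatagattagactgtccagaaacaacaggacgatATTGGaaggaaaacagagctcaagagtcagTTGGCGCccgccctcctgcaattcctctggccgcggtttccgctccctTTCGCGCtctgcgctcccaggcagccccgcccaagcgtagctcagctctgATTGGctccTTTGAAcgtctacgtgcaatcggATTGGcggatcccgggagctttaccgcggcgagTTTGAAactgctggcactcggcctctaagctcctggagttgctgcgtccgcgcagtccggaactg
Bub1b: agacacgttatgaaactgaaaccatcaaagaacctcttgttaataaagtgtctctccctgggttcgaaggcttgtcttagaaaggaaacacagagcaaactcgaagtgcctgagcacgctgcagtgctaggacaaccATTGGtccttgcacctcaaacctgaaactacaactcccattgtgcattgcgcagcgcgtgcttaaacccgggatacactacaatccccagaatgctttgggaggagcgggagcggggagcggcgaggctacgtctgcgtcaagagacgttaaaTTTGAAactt
Cenpf: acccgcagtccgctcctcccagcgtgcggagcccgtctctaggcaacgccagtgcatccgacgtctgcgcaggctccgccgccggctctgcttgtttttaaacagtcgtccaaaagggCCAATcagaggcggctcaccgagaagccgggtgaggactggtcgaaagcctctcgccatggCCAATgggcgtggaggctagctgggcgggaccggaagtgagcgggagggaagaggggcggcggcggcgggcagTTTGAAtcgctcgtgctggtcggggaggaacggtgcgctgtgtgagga
Mcm3: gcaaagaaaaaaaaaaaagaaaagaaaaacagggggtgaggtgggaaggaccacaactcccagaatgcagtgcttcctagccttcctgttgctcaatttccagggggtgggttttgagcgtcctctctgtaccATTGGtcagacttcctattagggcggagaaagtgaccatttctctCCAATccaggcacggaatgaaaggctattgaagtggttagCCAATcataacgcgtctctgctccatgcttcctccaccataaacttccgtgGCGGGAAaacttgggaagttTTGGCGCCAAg
Mcm6: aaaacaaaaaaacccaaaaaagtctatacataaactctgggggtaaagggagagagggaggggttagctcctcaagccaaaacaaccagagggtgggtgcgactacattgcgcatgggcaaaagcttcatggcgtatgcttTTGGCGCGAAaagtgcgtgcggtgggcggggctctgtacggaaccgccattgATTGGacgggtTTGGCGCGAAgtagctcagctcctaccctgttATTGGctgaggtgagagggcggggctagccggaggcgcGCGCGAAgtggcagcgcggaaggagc
Of the 38 genes, 30 had a promoter window, some of them more than one. A CHR match was found in 13 of 17 windows of the G2 and mitotic genes (76.5%), in 1 of 10 windows of the S phase genes and in 0 of 6 windows of the G1 genes, against 17.9% of all 32851 windows in the table. CHR and CCAAT matches stood together in 12 of the 17 G2 and mitotic windows (70.6%), against 6.95% of all windows. An E2F core match was found in 7 of 10 S phase windows (70.0%), in 3 of 17 G2 and mitotic windows (17.6%) and in 0 of 6 G1 windows, against 9.57% of all windows. These are matches of letters, not measured binding sites, and an annotated start need not be the main start of its gene. The G1 share rests on 6 windows of 5 genes. Cenpf, which was lower in S55L hearts (below), holds 1 CHR and 2 CCAAT matches, and Birc5, which was higher, holds no match to the 3 motifs.

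In naive hearts, 14 of the 28 tested cell cycle genes were higher in S55L than in WT and 1, Cenpf, was lower, at a Benjamini-Hochberg adjusted p below 0.05 in edgeR's quasi-likelihood test. Among all 11945 genes tested, 21.9% were higher and 21.6% lower. By role, 4 of 6 tested G1 genes, 3 of 9 S phase genes and 7 of 13 G2 and mitotic genes were higher. In the 38 genes fitted without the level filter, the log2 fold change was above 0 for 34, and its median was 0.66 for G1 genes, 0.66 for S phase genes and 1.72 for G2 and mitotic genes, while the median of all genes in that fit was 0.02. The filter bears on the count: 13 of the 28 genes reached the filter level in 4 libraries only with the help of S55L libraries, and 7 of the 14 higher genes are among them. These 7 are Ccne1, Ccna2, Ccnb2, Birc5, Bub1b, Prc1 and Tpx2. Of the higher mitotic genes, only Cdk1 reached the filter level in at least 4 WT libraries. Of the 15 genes that reached it in at least 4 WT libraries, 7 were higher and 1 was lower. The S55L libraries all lay above the WT libraries for 9 of the 28 genes and all below for 2, against 16.8% and 15.4% of all genes. The 9 include Ccna2, Birc5, Bub1b, Prc1 and Tpx2, which passed the filter only with the help of S55L libraries.

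The same comparison between PP hearts gave 11 higher genes and 1 lower, again Cenpf, against 16.3% higher and 15.2% lower among all genes. By role, 3 of 6 G1 genes, 3 of 9 S phase genes and 5 of 13 G2 and mitotic genes were higher. Of the 15 genes at the filter level in at least 4 WT libraries, 6 were higher and 1 was lower. The other 5 higher genes, Mcm2, Birc5, Bub1b, Prc1 and Tpx2, passed the filter only with the help of S55L libraries. The libraries did not overlap for 8 genes with S55L above and 1 with S55L below, against 13.7% and 11.7% of all genes. The 8 include Ccne1, Mcm2 and Bub1b, which passed the filter in the same way. In the fit without the filter, 35 of the 38 log2 fold changes were above 0. Higher in both naive and PP hearts were 10 genes. Ccne1, Ccna2, Ccnb2 and Mcm4 passed in naive and not in PP hearts, and Mcm2 in PP and not in naive hearts, and the test of the difference between the genotype effects did not pass for any of the 5.

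Depth and plate position bear on these counts. With every library thinned to 1418715 reads, 7 genes were higher in naive hearts and 6 in PP hearts, where 20.5% and 14.8% of all genes tested were higher, and Cenpf was lower in both, as were 20.2% and 13.5% of all genes. Of the calls lost, only Mcm3 in naive and Mcm6 in PP hearts had a value and did not pass. The others were not tested after thinning, where the level filter was applied anew. These were Ccne1, Ccna2, Ccnb2, Birc5, Bub1b and Tpx2 in naive, and Mcm2, Birc5, Bub1b and Tpx2 in PP hearts. With the plate column as a term, 5 were higher in each, where 11.6% and 8.96% of all genes were higher. Those 5 were Ccnd1, Mcm6, Cdk1, Ccna2 and Birc5 in naive hearts, and Mcm3, Mcm6, Cdk1, Birc5 and Prc1 in PP hearts, with Cenpf lower in both, as were 12.4% and 8.69% of all genes.

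**Figure D1:**
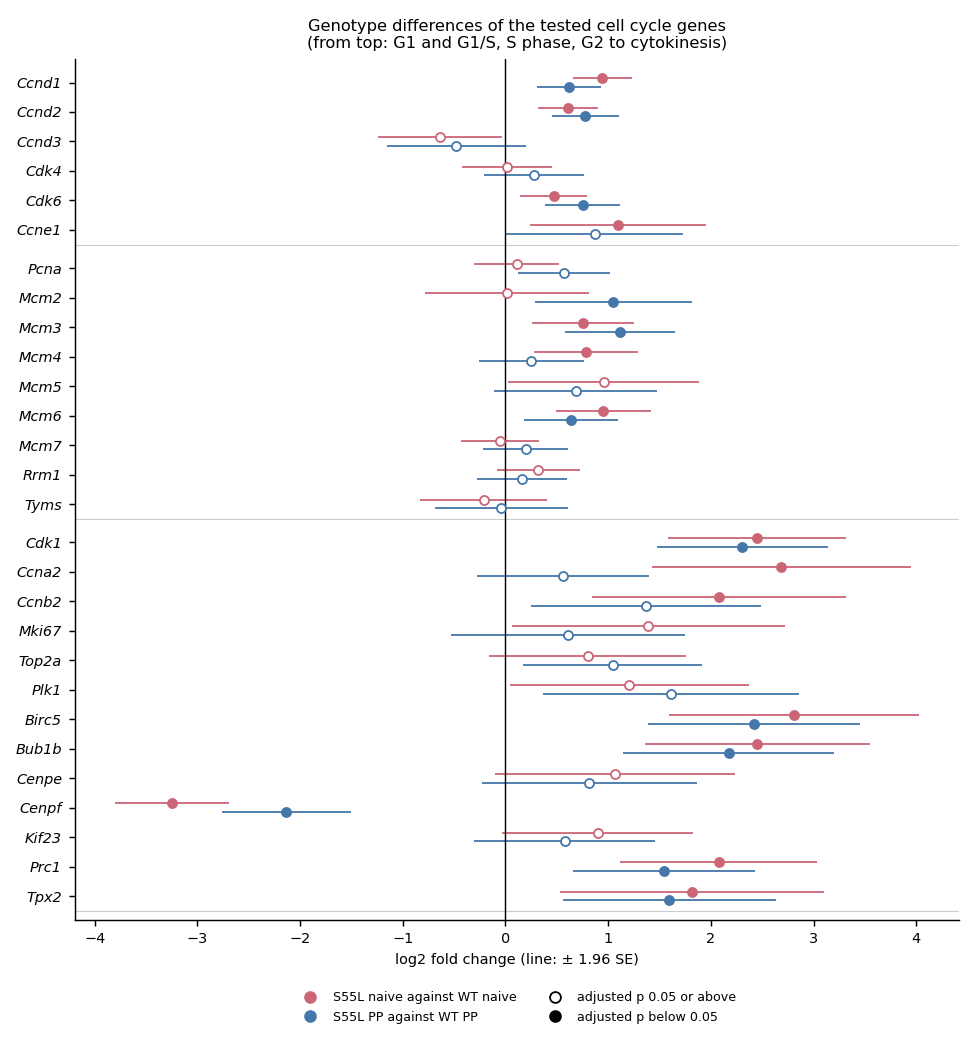
Log2 fold changes of the 28 tested cell cycle genes between S55L and WT, in naive hearts (red) and PP hearts (blue), ordered by role from G1 at the top to mitosis and cytokinesis at the bottom, with lines for the 95% intervals. Filled symbols have an adjusted p below 0.05. The mitotic genes lie between 0.80 and 2.81 in naive hearts, except Cenpf, which lies alone on the far left at -3.25 and -2.13.

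The D-type cyclins and their kinases set the pace of G1. Ccnd1, cyclin D1, was measured at 66.4, 87.4, 69.6, 67.7 and 96.5 CPM in WT naive hearts and at 120.1, 156, 177, 134 and 157 CPM in S55L naive hearts. In PP hearts it was at 111, 109, 93.0 and 108 CPM in WT and 138, 183, 187 and 140.3 CPM in S55L. In both states every S55L library lay above every WT library, and the log2 fold changes were 0.94, SE 0.15, adjusted p = 8.47e-06 in naive and 0.62, SE 0.16, adjusted p = 0.00359 in PP hearts. Ccnd2, cyclin D2, was at 356, 353, 353, 328 and 458 CPM in WT naive and 564, 612, 585.8, 528 and 527 CPM in S55L naive libraries, which did not overlap, and rose with log2 fold change 0.61, SE 0.15, adjusted p = 0.00188. In PP hearts the Ccnd2 levels of 523, 344, 389 and 299 CPM in WT and 822, 679, 652 and 516.6 CPM in S55L overlapped through WT PP 1 and S55L PP 5 (log2 fold change 0.78, SE 0.17, adjusted p = 0.000724). The Ccnd2 difference did not remain with the plate column as a term (log2 fold change 0.00 in naive, adjusted p = 0.999, and -0.02 in PP hearts, adjusted p = 0.972). That fit rests on WT PP 1, the only WT library outside plate column 1 and the one with the highest Ccnd2 in WT.

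Cdk6, a kinase partner of the D cyclins, was at 56.1, 31.0, 28.7, 59.1 and 45.0 CPM in WT naive and 64.0, 58.6, 71.8, 54.0 and 58.4 CPM in S55L naive libraries, and the groups overlapped (log2 fold change 0.47, SE 0.17, adjusted p = 0.024). The naive call was lost without WT naive 2, WT naive 3 or S55L naive 3 (the log2 fold change and adjusted p ran from 0.22 to 0.71 and from 0.00175 to 0.689 over all alternatives). In PP hearts the 4 WT libraries, at 41.7, 38.5, 36.8 and 30.8 CPM, lay below the 4 S55L libraries, at 59.8, 66.1, 64.1 and 58.6 CPM (log2 fold change 0.75, SE 0.19, adjusted p = 0.00268). The other kinase partner, Cdk4, had nearly the same mean in both naive groups, 9.502 ± 1.75 CPM in WT and 9.57 ± 1.49 CPM in S55L (SD, n = 5 each), and its log2 fold change was 0.02, SE 0.22, adjusted p = 0.956, with a 95% interval of -0.42 to 0.46. Ccnd3, cyclin D3, had values of 65.9, 65.3, 97.1, 70.0 and 90.0 CPM in WT naive and 62.5, 59.5, 60.6, 42.6 and 24.6 CPM in S55L naive libraries. The S55L libraries lay below the WT libraries, but the difference did not pass the test (log2 fold change -0.64, SE 0.31, adjusted p = 0.106). Ccne1, cyclin E1, which acts with CDK2 at S phase entry, had 1, 6, 0, 6 and 6 reads in WT naive and 22, 21, 16, 22 and 28 reads in S55L naive libraries. That is 2.36 ± 2.06 against 4.85 ± 1.27 CPM (SD, n = 5 each), and the groups overlapped (log2 fold change 1.10, SE 0.44, adjusted p = 0.0434). Leaving out WT naive 1 or 3 or S55L naive 1, 4 or 5 ended this call, with adjusted p up to 0.143 over the alternatives. Of the 2 untested G1 genes, E2f1 had 0 to 6 reads per WT library and 4 to 19 per S55L library, and Ccne2 had 0 to 9 and 1 to 8. Without the level filter, Ccne2, cyclin E2, was the only gene besides Cenpf that was lower in S55L naive hearts (log2 fold change -1.46, adjusted p = 0.0402), where 7.76% of all genes were lower.

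Among the S phase genes, the MCM helicase subunits that open replication origins carried the calls. Mcm6 was at 4.12, 8.98, 7.02, 6.88 and 6.43 CPM in WT naive and 14.6, 9.11, 13.4, 13.4 and 13.3 CPM in S55L naive hearts, with all S55L libraries above all WT libraries (log2 fold change 0.95, SE 0.24, adjusted p = 0.00191). In PP hearts Mcm6 was at 7.62, 12.3, 12.1 and 12.2 CPM in WT and 14.5, 14.6, 16.7 and 22.4 CPM in S55L, again without overlap (log2 fold change 0.64, SE 0.23, adjusted p = 0.0373). The PP call of Mcm6 was lost under 8 of 20 alternatives, among them leaving out WT PP 1, WT PP 4, S55L PP 4 or S55L PP 5, and thinning (highest adjusted p over the alternatives 0.419). Mcm3 was at 6.70, 6.53, 11.1, 6.88 and 5.94 CPM in WT naive and 7.71, 10.7, 16.5, 10.8 and 17.0 CPM in S55L naive hearts, where the groups overlapped (log2 fold change 0.75, SE 0.25, adjusted p = 0.018). In PP hearts the Mcm3 groups stood apart, at 5.44, 7.82, 8.46 and 7.89 CPM in WT and 12.3, 14.6, 18.3 and 18.4 CPM in S55L (log2 fold change 1.12, SE 0.27, adjusted p = 0.00225). Mcm4 was at 5.15, 6.53, 4.09, 7.46 and 8.91 CPM in WT naive and 7.92, 8.76, 11.8, 11.7 and 15.9 CPM in S55L naive hearts, with overlap (log2 fold change 0.79, SE 0.26, adjusted p = 0.0155). Leaving out S55L naive 5, the highest library in both genes, ended the naive calls of Mcm4 and Mcm3. Leaving out WT naive 3 also ended that of Mcm4, and leaving out WT naive 5 or S55L naive 3 that of Mcm3 (highest adjusted p over the alternatives 0.640 and 0.195).

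Mcm2 stood highest in S55L PP hearts. It was at 3.61, 1.63, 2.34, 1.72 and 0.990 CPM in WT naive, 2.54, 1.12, 3.02 and 2.51 CPM in WT PP, 1.25, 3.04, 2.01, 1.42 and 2.62 CPM in S55L naive and 5.03, 5.39, 4.85 and 4.05 CPM in S55L PP hearts. The S55L PP libraries lay above all others, and the genotype difference in PP hearts passed (log2 fold change 1.05, SE 0.39, adjusted p = 0.041). That call was lost with the replicate number as a block (adjusted p = 0.0533) and under 11 of the other 18 alternatives with a value, among them leaving out any of WT PP 1, 3 and 5 and S55L PP 1, 3 and 4 (highest adjusted p 0.594). Mcm5 and Mcm7, 2 further helicase subunits, did not pass in either state, nor did Rrm1, a ribonucleotide reductase subunit, or Tyms, thymidylate synthase. Pcna, the sliding clamp of the replication fork, was at 18.6 ± 5.61 CPM in WT PP and 28.3 ± 9.01 CPM in S55L PP hearts (SD, n = 4 in both groups; log2 fold change 0.57, SE 0.23, adjusted p = 0.0581). It passed with the replicate number as a block (log2 fold change 0.59, adjusted p = 0.0217). Rrm2, the cell cycle dependent reductase subunit, was not tested, with 0 to 7 reads per WT library and 8 to 27 per S55L library.

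The G2 and mitotic genes showed the largest differences, from very few reads in WT. Cdk1, the kinase that drives entry into mitosis, had 3, 2, 5, 7 and 9 reads in WT naive and 60, 95, 105, 33 and 92 reads in S55L naive libraries. In CPM these were 1.55, 1.63, 2.92, 4.02 and 4.45 against 12.5, 17.0, 23.4, 9.38 and 20.1, without overlap (log2 fold change 2.45, SE 0.44, adjusted p = 0.000138). In PP hearts Cdk1 was at 3.26, 5.02, 10.3 and 2.87 CPM in WT and 12.0, 15.7, 34.2 and 37.4 CPM in S55L, also without overlap (log2 fold change 2.31, SE 0.43, adjusted p = 0.00025). WT PP 4 was the highest WT library, and S55L PP 4 and 5 stood well above S55L PP 1 and 3. The Cdk1 calls remained under every alternative tried, in both states.

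Birc5, survivin, a subunit of the chromosomal passenger complex, had 0, 0, 2, 1 and 3 reads in WT naive and 24, 22, 32, 18 and 20 reads in S55L naive libraries. Its levels in S55L naive hearts, 5.004, 3.93, 7.14, 5.12 and 4.36 CPM, all lay above the WT maximum of 1.48 CPM (log2 fold change 2.81, SE 0.62, adjusted p = 0.000694). In PP hearts Birc5 was at 0.363, 4.47, 1.21 and 1.08 CPM in WT and 3.63, 6.07, 11.8 and 13.7 CPM in S55L, and overlapped only because WT PP 3 exceeded S55L PP 1 (log2 fold change 2.42, SE 0.53, adjusted p = 0.000833). Bub1b, the spindle checkpoint kinase BubR1, had 1, 1, 0, 1 and 2 reads in WT naive and 9, 20, 19, 11 and 18 reads in S55L naive libraries. Its PP reads were 3, 2, 1 and 2 in WT and 6, 16, 25 and 15 in S55L, and in CPM the genotypes did not overlap in either state. The log2 fold changes of Bub1b were 2.45, SE 0.56, adjusted p = 0.000896 in naive and 2.18, SE 0.52, adjusted p = 0.00206 in PP hearts.

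Prc1, which bundles the microtubules of the central spindle, was at 2.58, 0.816, 2.92, 1.15 and 2.97 CPM in WT naive and 6.88, 8.22, 12.0, 7.11 and 12.4 CPM in S55L naive hearts, without overlap (log2 fold change 2.08, SE 0.49, adjusted p = 0.00148). The PP groups of Prc1, 3.99, 6.70, 7.25 and 1.08 CPM in WT and 6.15, 6.52, 18.6 and 20.9 CPM in S55L, overlapped (log2 fold change 1.54, SE 0.45, adjusted p = 0.0112). With the replicate number as a block in a fit of the compared groups only, the PP call of Prc1 was lost (adjusted p = 0.0649), as it was with limma voom, in the fit of the compared groups only and without plate rows A and H (highest adjusted p over the alternatives 0.214). Tpx2, a spindle assembly factor that activates Aurora A, had 2, 0, 0, 2 and 3 reads in WT naive and 17, 17, 10, 6 and 18 in S55L naive libraries, and its CPM did not overlap (log2 fold change 1.81, SE 0.65, adjusted p = 0.0266). In PP hearts it had 7, 9, 2 and 0 reads in WT and 15, 21, 35 and 22 in S55L libraries, overlapping in CPM through WT PP 3 (log2 fold change 1.59, SE 0.53, adjusted p = 0.0221). The naive call of Tpx2 was lost without WT naive 2, WT naive 3 or S55L naive 5, and the PP call without WT PP 4, WT PP 5 or S55L PP 4 (highest adjusted p over the alternatives 0.457 and 0.338). With the replicate number as a block in a fit of the compared groups only, the PP call of Tpx2 was also lost (adjusted p = 0.0699).

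Of the A and B cyclins, Ccna2 and Ccnb2 passed in naive and not in PP hearts, and the difference between their genotype effects did not pass (adjusted p = 0.997 for both). Ccna2, cyclin A2, had 1, 1, 2, 0 and 0 reads in WT naive and 14, 13, 15, 14 and 17 reads in S55L naive libraries, without overlap in CPM (log2 fold change 2.69, SE 0.64, adjusted p = 0.00138). In PP hearts WT libraries stood at 3.26, 7.26, 1.81 and 2.51 CPM, against 2.52, 4.04, 7.54 and 7.48 CPM in S55L, and the difference did not pass (log2 fold change 0.56, SE 0.43, adjusted p = 0.34). Ccnb2, cyclin B2, had 0, 1, 2, 1 and 2 reads in WT naive and 8, 15, 19, 4 and 25 reads in S55L naive libraries (log2 fold change 2.08, SE 0.63, adjusted p = 0.009), with S55L naive 4 inside the WT range. The PP comparison of Ccnb2 did not pass (log2 fold change 1.37, SE 0.57, adjusted p = 0.0675). Ccnb1, cyclin B1, was too low to test, with 3 reads in all WT naive and 47 in all S55L naive libraries, a ratio of 7.01 after scaling to the reads on genes (exact 95% interval 2.26 to 35.2, counting error only).

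Mki67 and Top2a, the markers most often used for proliferation, did not pass. Mki67, which coats mitotic chromosomes, was at 1.55, 0, 3.51, 0 and 3.46 CPM in WT naive and 2.92, 5.003, 8.25, 3.98 and 4.14 CPM in S55L naive hearts (log2 fold change 1.39, SE 0.68, adjusted p = 0.105). Top2a, a topoisomerase that untangles replicated DNA, was at 4.64, 0.816, 7.02, 2.29 and 4.95 CPM in WT naive and 3.54, 5.36, 12.0, 5.12 and 10.03 CPM in S55L naive hearts (log2 fold change 0.80, SE 0.49, adjusted p = 0.195). Both passed in naive hearts when the level filter was dropped, where 11.2% of all 29643 genes fitted were higher (adjusted p = 0.00325 for Mki67 and 0.0209 for Top2a). Plk1, Polo-like kinase 1, the kinesin Cenpe and the kinesin Kif23 had log2 fold changes of 0.90 to 1.21 in naive hearts and did not pass. Among the untested mitotic genes, the reads summed over WT naive and over S55L naive libraries were 4 and 57 for Aurka, 1 and 19 for Aurkb, 1 and 7 for Bub1, 5 and 22 for Kif11, 7 and 34 for Kif20a, and 6 and 20 for Anln. All reads on genes summed to 9596415 in WT naive and 21460167 in S55L naive libraries. Without the level filter, Aurka (adjusted p = 0.00206), Ccnb1 (adjusted p = 0.00426) and Rrm2 (adjusted p = 0.0354) were also higher in S55L naive hearts, and Aurkb (adjusted p = 0.00359), Ccnb1 (adjusted p = 0.00689), Plk1 (adjusted p = 0.0293), Top2a (adjusted p = 0.00134) and Pcna (adjusted p = 0.0276) in S55L PP hearts, where 7.88% of all genes were higher.

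**Figure D2:**
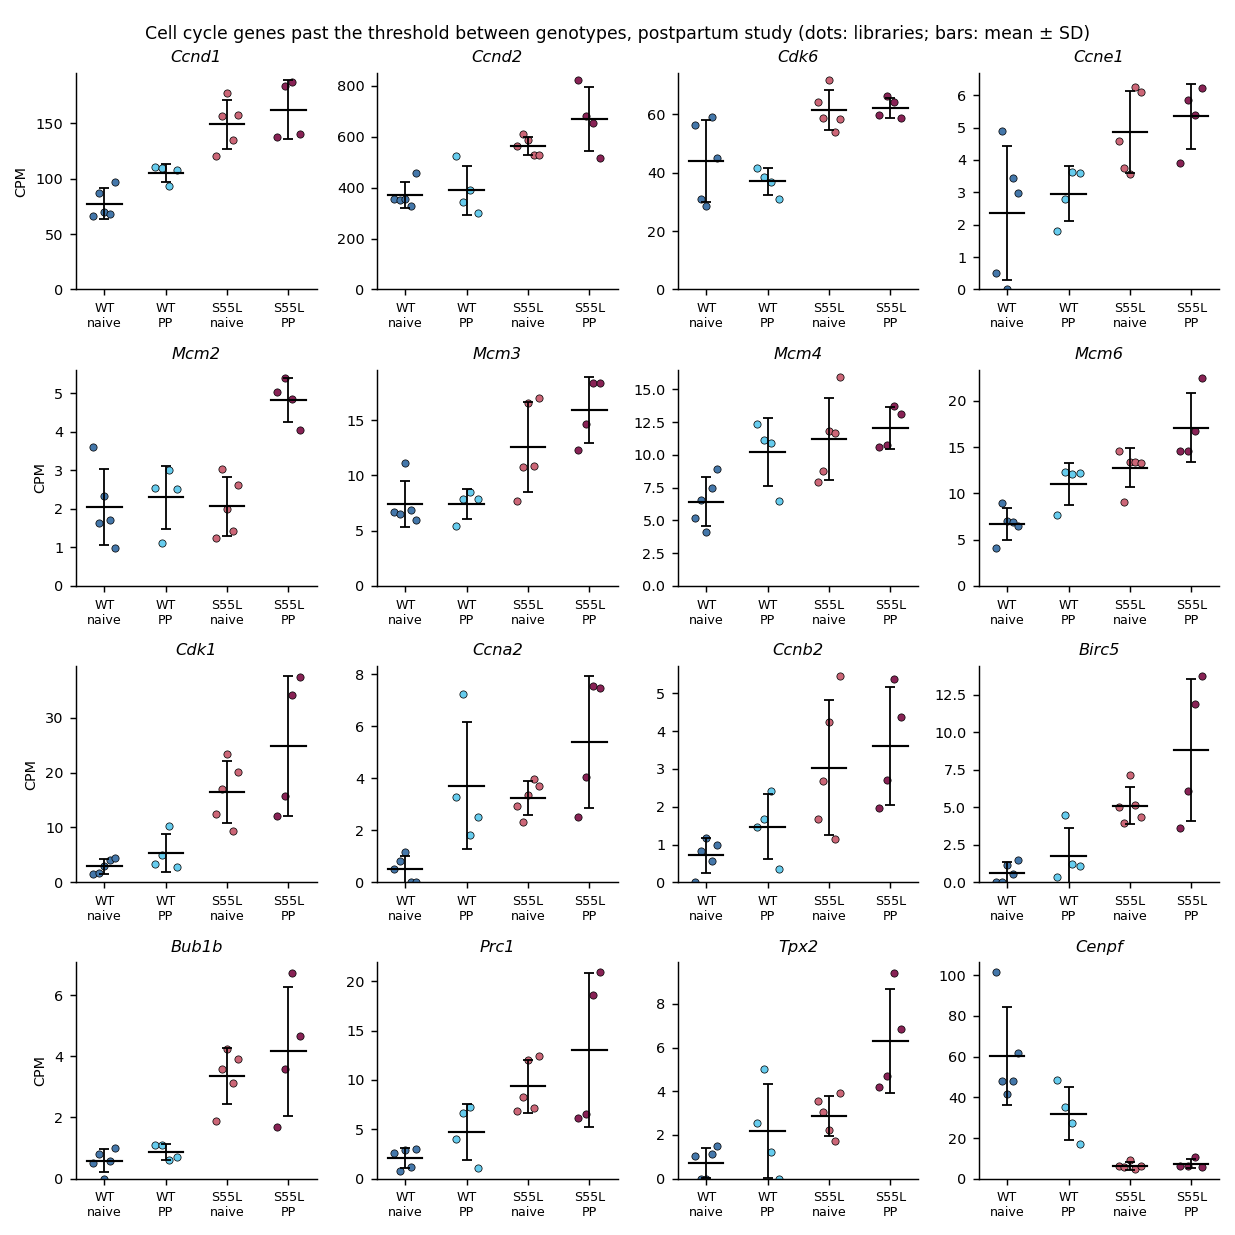
CPM of the 16 cell cycle genes past the threshold in a genotype comparison, in each library of the 4 postpartum study groups (dots, in replicate order), with the mean and SD of each group as bars. In 15 panels the S55L groups tend to lie above the WT groups, with Mcm2 higher in S55L PP only, and in the Cenpf panel the 9 S55L libraries, at 4.55 to 10.5 CPM, lie below the 9 WT libraries, at 17.2 to 101 CPM.

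Cenpf moved the opposite way. It encodes a large kinetochore and microtubule protein, counted as a mitotic gene, that has also been studied in cardiomyocytes. Its level was 101, 48.2, 41.5, 48.2 and 61.8 CPM in WT naive and 6.05, 5.54, 9.37, 4.55 and 6.11 CPM in S55L naive hearts, with 197, 59, 71, 84 and 125 reads behind the first and 29, 31, 42, 16 and 28 behind the second. It was lower in S55L without overlap, with log2 fold change -3.25, SE 0.28, adjusted p = 4.05e-09. In PP hearts it was at 48.6, 35.2, 27.2 and 17.2 CPM in WT and 6.43, 6.29, 10.5 and 5.92 CPM in S55L, again without overlap (log2 fold change -2.13, SE 0.32, adjusted p = 1.8e-05). Cenpf held 536 of the reads of WT naive hearts, more than any other of the 20 mitotic genes there, where Top2a held 36 and Cdk1 held 26. The calls remained under every alternative tried. The annotation places a pseudogene, Gm37239, on the opposite strand within Cenpf, and it had 2 reads over all columns of the postpartum study. Among the 8 cardiomyocyte markers, 7 were lower in S55L naive hearts, and their summed level was 73759 to 94060 CPM in WT naive and 42243 to 55634 CPM in S55L naive libraries. The part of cardiomyocyte content in the Cenpf difference was not tested.

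The summed level of the 19 other mitotic genes, a grouping made after the Cenpf values were seen, gives 1 number per library. It ran from 11.4 to 32.7 CPM in WT naive, 19.01 to 72.6 CPM in WT PP, 54.6 to 100.8 CPM in S55L naive and 67.1 to 191.7 CPM in S55L PP hearts. The WT and S55L ranges did not overlap in naive hearts and overlapped slightly in PP hearts. The mean was 21.5 ± 8.53, 47.3 ± 22.0, 74.1 ± 19.2 and 121.4 ± 59.0 CPM in that order (SD, n = 5, 4, 5 and 4). The spread in S55L PP hearts was wide, with replicates 4 and 5 at 148.1 and 191.7 CPM and replicates 1 and 3 at 67.1 and 78.6 CPM. With Cenpf included, the sum over all 20 genes was 81.7 ± 25.5, 79.4 ± 31.2, 80.4 ± 20.8 and 128.7 ± 59.5 CPM in the same order. The naive ranges, 59.6 to 120.5 CPM in WT and 59.1 to 110.2 CPM in S55L, then overlapped, so the separation of the naive groups rests on leaving Cenpf out. S55L PP 5 was the highest library of its group in 13 of the 20 mitotic genes and in 7 of the 10 S phase genes. The S phase genes summed to 65.3 to 85.1 CPM in WT naive, 88.6 to 93.6 CPM in WT PP, 89.4 to 112.1 CPM in S55L naive and 111.4 to 166.8 CPM in S55L PP hearts. The G1 sum is mostly Ccnd2.

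**Figure D3:**
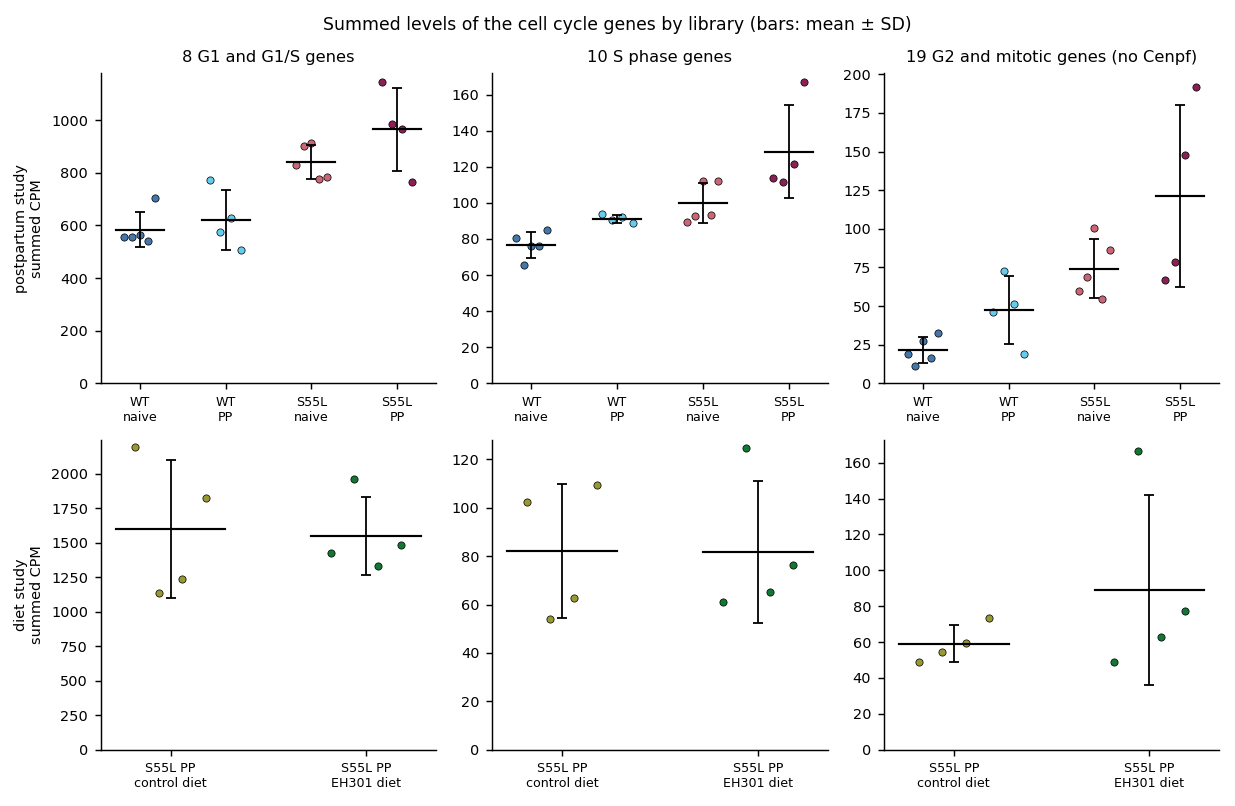
Summed CPM of the genes of each role by library (dots), with the mean and SD of each group (bars), for the postpartum study (top) and the separately counted diet study (bottom), each panel with its own axis from 0. The mitotic panel leaves out Cenpf, and in it the 5 S55L naive libraries, at 54.6 to 100.8 CPM, all lie above the 5 WT naive libraries, at 11.4 to 32.7 CPM, and in the diet study EH301 diet 8, at 166.4 CPM, lies far above the other 7 libraries.

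Markers of other cell types also differed between genotypes. Over all genes tested, 21.9% were higher and 21.6% lower in naive hearts, and 16.3% and 15.2% in PP hearts, and the counts of small lists are read against these shares. All 10 macrophage markers were higher in S55L naive hearts and 8 of 10 in S55L PP hearts, and their summed level was 296.7 to 376 CPM in WT naive, 421 to 530.3 CPM in WT PP, 1579 to 1930 CPM in S55L naive and 1390 to 2496 CPM in S55L PP libraries. Of 8 fibroblast markers, 4 were higher in naive and 5 in PP hearts, with summed levels of 1070 to 1435 CPM in WT naive and 1708 to 2233 CPM in S55L naive libraries. Of 8 endothelial markers, 3 were lower in each state. Of 7 pericyte and smooth muscle markers, 1 was higher and 5 lower in naive hearts, and 1 higher and 3 lower in PP hearts. Their summed levels were 636.8 to 783 CPM in WT naive and 1543 to 3554 CPM in S55L naive libraries. The median log2 fold change of the 7 was -0.66 in naive hearts, so the higher sum does not stand for most of these markers. Lymphocyte markers summed to at most 2.68 CPM and neutrophil and marrow markers to at most 3.82 CPM in any library of the postpartum study, none of these 14 passed the filter, and Cd79a, Elane and Ly6g were at 0 in both studies. Of 6 tested erythroid markers, 3 were lower in S55L naive hearts and 0 passed in PP hearts. The part of these cell types in the cell cycle differences was not tested.

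For 5 further lists of the cell cycle machinery, the counts stand beside the shares of all genes tested, 21.9% higher and 21.6% lower in naive and 16.3% and 15.2% in PP hearts. Several lists lie near or below these shares, and nothing is read from such counts. Of 4 tested inhibitors of cyclin-dependent kinases, Cdkn1a was higher and Cdkn1c lower in both states. Cdkn1a, p21, rose from 22.8 ± 11.2 to 100.2 ± 18.4 CPM in naive hearts (SD, n = 5 in both groups; log2 fold change 2.18, SE 0.38, adjusted p = 0.000193) and from 33.3 ± 24.1 to 98.9 ± 23.2 CPM in PP hearts (n = 4 in both groups; log2 fold change 1.55, SE 0.39, adjusted p = 0.00605). Cdkn1c, p57, fell with log2 fold change -1.06, SE 0.23, adjusted p = 0.00046 in naive and -1.27, SE 0.27, adjusted p = 0.000676 in PP hearts. Of 11 tested pocket proteins, E2F factors and DREAM subunits, 1 was higher and 2 were lower in each state. E2f3, an activator E2F, was higher, from 2.86 ± 1.36 to 11.5 ± 1.57 CPM in naive hearts (log2 fold change 1.93, SE 0.28, adjusted p = 3e-06; in PP 0.80, SE 0.27, adjusted p = 0.026). Tfdp2, a dimer partner of E2F factors, was lower in both (-1.198, SE 0.17, adjusted p = 1.99e-06 and -0.95, SE 0.19, adjusted p = 0.000251), with Rbl2 the other lower gene in naive (-0.61, SE 0.22, adjusted p = 0.0274) and Lin52 in PP hearts (-0.99, SE 0.32, adjusted p = 0.018).

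Of 8 tested genes among other cyclins and kinases, 3 were higher and 2 lower in naive hearts, and 1 higher and 1 lower in PP hearts. Cks1b, a small CDK subunit, was higher in both (1.80, SE 0.34, adjusted p = 0.000118 and 1.62, SE 0.34, adjusted p = 0.000601), and Wee1, which inhibits CDK1 by phosphorylation, in naive hearts (1.495, SE 0.30, adjusted p = 0.000226). Ccnh, the cyclin of the CDK-activating kinase, was lower in naive hearts (-0.53, SE 0.17, adjusted p = 0.0113) and Ccng1, cyclin G1, in PP hearts (-0.47, SE 0.16, adjusted p = 0.0256). Of 31 tested genes for origin licensing, replication and nucleotide supply, 6 were higher and 3 lower in naive, and 2 higher and 4 lower in PP hearts. The lower ones included Gmnn, geminin, the inhibitor of relicensing (-1.31, SE 0.19, adjusted p = 2.5e-06 and -1.09, SE 0.20, adjusted p = 0.000149), Dut, the dUTPase (-1.05, SE 0.20, adjusted p = 0.000149 and -1.06, SE 0.23, adjusted p = 0.000683), and Pold1, the catalytic subunit of polymerase delta (-1.35, SE 0.27, adjusted p = 0.000208 and -0.98, SE 0.30, adjusted p = 0.0121). Gins2, a subunit of the replicative helicase, was higher in PP hearts (2.43, SE 0.67, adjusted p = 0.00648). Of 19 tested spindle, kinetochore and cytokinesis genes, 6 were higher and 3 lower in naive, and 6 higher and 0 lower in PP hearts. Zwint, a kinetochore protein, was higher in both (1.14, SE 0.16, adjusted p = 2.85e-06 and 0.92, SE 0.18, adjusted p = 0.000255), while Cenpa, the centromeric histone, was lower in naive hearts (-0.89, SE 0.18, adjusted p = 0.000193) and Stmn1, which destabilises microtubules, was higher in PP hearts (1.35, SE 0.33, adjusted p = 0.00369). The kinase gene Melk had 2 reads over WT naive and 89 over S55L naive libraries, a ratio of 19.9 after scaling to the reads on genes (exact 95% interval 5.35 to 166.9), and 3 and 50 reads in PP hearts, a ratio of 12.0 (3.87 to 60.0), both intervals covering counting error only.

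Postpartum day 0 was then compared with the naive state within each genotype. In WT hearts 0 of the 28 tested cell cycle genes passed, where 0.0167% of all genes did, and in S55L hearts 0 passed, where 0% of all genes did. At an unadjusted p below 0.05 there were 6 of 28 in WT and 7 of 28 in S55L hearts, against 6.33% and 6.25% of all genes. DESeq2 also called 0 in both, but gave no adjusted p for some of the genes in WT hearts. In S55L hearts the PP and naive libraries also lay in different plate columns, and the 2 could be separated only through S55L PP 5. The log2 fold changes were above 0 for 21 genes in WT and 27 genes in S55L hearts. Their medians over the 13 tested mitotic genes were 0.94 and 0.58, and over the 9 tested S phase genes 0.16 and 0.37, while the median of all genes tested was -0.01 and 0.00. In S55L hearts the 6 tested erythroid markers had a median log2 fold change of 1.47 and 0 passed. Their list summed to 2395 ± 736 CPM in naive and 6944 ± 3074 CPM in PP libraries (SD, n = 5 and 4), highest at 10994 CPM in S55L PP 4 and 7333 CPM in S55L PP 5, the libraries with the highest mitotic sums. The macrophage markers summed to 1390, 1621, 1837 and 2496 CPM in S55L PP 1, 3, 4 and 5, in the same order as the mitotic sums. Their median log2 fold change against S55L naive hearts was 0.115. In WT hearts the 10 macrophage markers had a median of 0.63 and 0 passed, and summed to 344 ± 31.3 CPM in naive and 481 ± 49.7 CPM in PP libraries, which did not overlap. The part of these cell types in the postpartum differences was not tested.

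The lowest p in WT hearts belonged to Ccna2, cyclin A2. Its 1, 1, 2, 0 and 0 reads in WT naive and 9, 13, 3 and 7 reads in WT PP libraries did not overlap in CPM (log2 fold change 2.86, SE 0.69, adjusted p = 0.25). The WT PP libraries all lay above the naive ones for 2 of the 28 genes, Ccna2 and Mcm5 (log2 fold change 1.201, SE 0.52, adjusted p = 0.731), against 0.896% of all genes. Mki67 was at 1.55, 0, 3.51, 0 and 3.46 CPM in WT naive and 3.26, 12.8, 4.83 and 1.43 CPM in WT PP hearts, a spread led by WT PP 3 (log2 fold change 1.48, SE 0.75, adjusted p = 0.779). Cenpf was measured at 32.0 ± 13.3 CPM in WT PP and 60.2 ± 24.2 CPM in WT naive hearts (SD, n = 4 and 5; log2 fold change -0.92, SE 0.27, adjusted p = 0.454). Without the level filter Ccna2 (adjusted p = 0.0335) and Cenpf (adjusted p = 0.0225) passed in WT hearts, where 0.0472% of all genes were higher and 0.0236% lower.

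In S55L hearts the lowest p belonged to Mcm2, whose 4 PP libraries lay above the 5 naive libraries given above (log2 fold change 1.19, SE 0.33, adjusted p = 0.511). Tpx2 also separated, at 3.54, 3.04, 2.23, 1.71 and 3.93 CPM in S55L naive and 4.19, 4.72, 9.42 and 6.86 CPM in S55L PP hearts (log2 fold change 1.09, SE 0.41, adjusted p = 0.71). These 2 of 28 genes had all PP libraries above all naive ones, against 1.15% of all genes. Top2a was at 7.22 ± 3.62 CPM in S55L naive and 17.0 ± 9.52 CPM in S55L PP hearts and did not pass (SD, n = 5 and 4; log2 fold change 1.21, SE 0.39, adjusted p = 0.615), with S55L PP 5 at 30.6 CPM, and passed only without the level filter (adjusted p = 0.00346), where 0.0776% of all genes were higher.

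The test of whether the postpartum difference itself differed between genotypes called 0 of 28 genes, and 0% of all genes. It includes the S55L PP and S55L naive groups, whose plate columns differed except for S55L PP 5. At an unadjusted p below 0.05 there were 2 cell cycle genes, against 3.72% of all genes. These were Ccna2, with a smaller postpartum difference in S55L (difference of log2 fold changes -2.13, SE 0.81, adjusted p = 0.997, unadjusted p = 0.0143), and Cenpf, with a higher one (1.12, SE 0.43, adjusted p = 0.997, unadjusted p = 0.0161). This test uses the same libraries as the genotype and postpartum comparisons above, so its values are not independent of theirs.

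**Figure D4:**
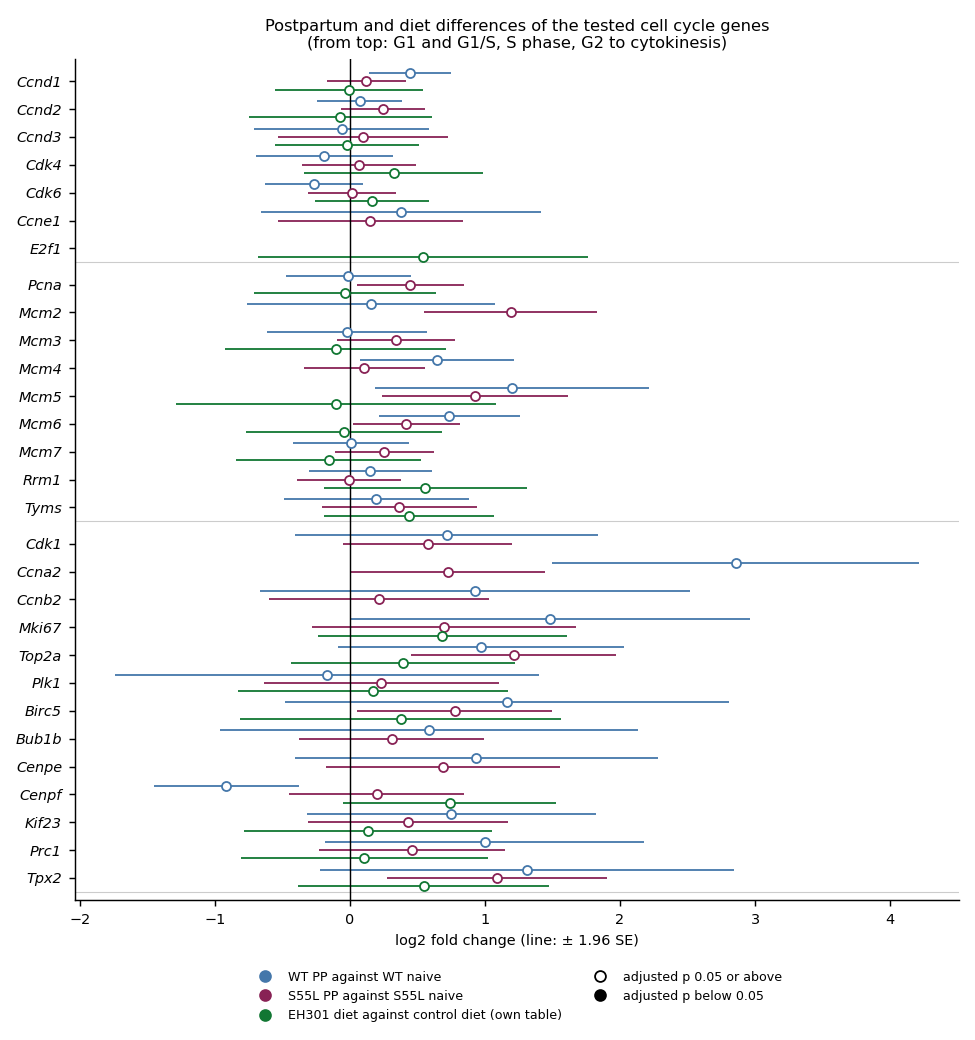
Log2 fold changes of the tested cell cycle genes for PP against naive in WT (blue) and S55L (purple) and for EH301 against control diet (green, from its own table), by role from top to bottom, with lines for the 95% intervals. All symbols are open, since no adjusted p was below 0.05, and Ccna2 in WT lies farthest right at 2.86.

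The diet study asked whether EH301 changed these genes in S55L PP hearts. Of 21 tested genes 0 passed and 0 had an unadjusted p below 0.05, where 0% of all 10335 genes passed and 1.33% had such a p, and DESeq2 also called 0. The log2 fold changes ran from -0.16 for Mcm7 to 0.74 for Cenpf, with standard errors from 0.22 to 0.62, so the intervals hold changes of more than 1 log2 unit for several genes. Cenpf had 1, 10, 9 and 15 reads under the control diet and 9, 8, 24 and 23 under EH301, and 2.22, 3.77, 2.99 and 5.63 against 3.11, 7.78, 7.64 and 8.57 CPM (log2 fold change 0.74, SE 0.40, adjusted p = 1). All 8 tested mitotic genes had a log2 fold change above 0, with a median of 0.38. Their spread was led by 1 library: EH301 diet 8, with 1141997 reads on genes, was the highest of its group in 13 of the 20 mitotic genes. Its macrophage markers summed to 5296 CPM, against 1599 to 2840 CPM in the other EH301 libraries and 2181 to 4330 CPM under the control diet. Control diet 1, at 4330 CPM in these markers, had the lowest mitotic sum without Cenpf, 48.9 CPM from 22 reads. The part of macrophage content in these mitotic levels was not tested. In Top2a, for example, the EH301 libraries were at 12.5, 58.4, 16.6 and 25.0 CPM and the control diet libraries at 26.7, 17.4, 17.3 and 22.1 CPM (log2 fold change 0.39, SE 0.42, adjusted p = 1). In Birc5 they were at 2.08, 23.4, 5.10 and 8.94 and 4.45, 3.40, 6.65 and 9.75 CPM (log2 fold change 0.38, SE 0.61, adjusted p = 1). Ccnd1 and Ccnd2 had log2 fold changes of -0.01 (SE 0.28) and -0.07 (SE 0.35).

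The 2 tables were counted separately and list different sets of genes, so levels between them are only set side by side. Cdk1 had 0 to 7 reads per library in the diet study and 43 to 127 in the S55L PP libraries of the postpartum study. Mcm4 had 0 to 5 reads against 38 to 51. Bub1b had 0 to 4 reads against 6 to 25, while Top2a had 12 to 67 against 37 to 98. The annotation release behind each table is not given in the sources used here.

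Some of the genes overlap others in the GENCODE M21 annotation, and the strand setting of the counting is not given in the sources used here. Of the 38, 18 are overlapped by another annotated gene and 8 by a protein-coding one. Among the 8 are Ccnd1 with LTO1, Ccna2 with Exosc9, Ccnd3 with Bysl, Cdk4 with Tspan31, Prc1 with Rccd1, and Mcm7 with Cops6 and Ap4m1. Reads of such pairs may not be told apart. Ccnd2 and Cdk6 have antisense neighbours with the same limit.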

How the data were processed

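Per the labels' protocols, RNA from mouse hearts was made into 3′ mRNA libraries (QuantSeq FWD) and sequenced. The submitters' processing notes name Trimmomatic 0.39, STAR 2.7.0f, HTSeq 0.6.1, DESeq2 3.21 and the build GRCm39.p6, with no role or order. The authors deposited 2 tables of raw read counts per gene, for the postpartum and the diet study, with 5 columns for each group. The annotation release, the strand setting and the overlap mode of the counting are not given in the sources used here. HTSeq's summary lines were left out of totals and tests: reads without a feature made up 5.65% to 10.1% of alignments in the postpartum study and 1.43% to 1.74% in the diet study. Columns with identical counts were found by comparing all pairs, and other pairs differed by more than sampling noise (lowest chi-square per gene 2.16 and 4.94). Symbols were matched by Ensembl identifier to GENCODE M21.

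Genes were kept by filterByExpr, scaled by TMM and tested by edgeR 4.0.16's robust quasi-likelihood test in R 4.3.3, with 1 fit over the 18 libraries of the postpartum study and 1 over the 8 of the diet study, and Benjamini-Hochberg adjustment over all genes tested at a threshold of 0.05. Log2 fold changes of genes with few counts depend on edgeR's prior count and are not bounds, and counting intervals cover counting error only. All 38 genes are accounted for: those past the threshold in any comparison are given by library, others by reads or ranges, and in each further list up to 3 genes with the lowest adjusted p are named per comparison. The genes and lists were chosen with earlier results of these data known. The main tests used the group only and were not paired, and the replicate number entered as a block only in alternatives. Between WT PP and S55L PP hearts, deviations from the group mean in libraries with the same number correlated at r = 0.119 to 0.333 over the 4 pairs. Pairs with different numbers were not examined, so these values have no reference, and no label says what the numbers stand for. In every other pair of groups at least 1 correlation was at or below 0.1, although WT naive 1 and WT PP 1 reached 0.356. The scripts were tested on simulated counts. Alternatives were another scaling or test (DESeq2 1.42.0, limma 3.58.1), no filter, thinning, the plate column, the replicate block and leaving out libraries.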

Additional observations from a re-analysis of the deposited data

Results flagged for a closer look

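In groups of 4 or 5 libraries, 12 of 114 sets of values had 1 library far from the others, and chance alone flags about 1 in 20. Among naive libraries, WT naive 5 was high in the summed G1 level, at 705 CPM against a median of 556 CPM in the others, and in Ccnd2, at 458 against 353 CPM. WT naive 3 was high in Mcm3, at 11.1 against 6.61 CPM. S55L naive 2 was low in Mcm6, at 9.11 against 13.4 CPM. Among PP libraries, WT PP 4 was low in Ccnd1, at 93.0 against 109 CPM, and WT PP 1 was low in Mcm6, at 7.62 against 12.2 CPM. S55L PP 4 was high in Cenpf, at 10.5 against 6.29 CPM.

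In the diet study, control diet 1, the shallowest library, was low in Cdk6, at 35.6 against 49.8 CPM. Mcm3 was high in control diet 4, at 24.8 against 9.98 CPM, and in EH301 diet 8, at 26.3 against 10.2 CPM. EH301 diet 10 was low in Mcm4, at 0.372 against 0.973 CPM, a gene with at most 5 reads per library there. EH301 diet 7 was low in Cenpf, at 3.11 against 7.78 CPM.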

How the results depend on the processing

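The calls of Ccnd1, Mcm6, Cdk1, Ccna2, Birc5 and Cenpf in naive hearts (6 of 15) and of Cdk1, Birc5 and Cenpf in PP hearts (3 of 12) remained under every alternative with a value. Ccna2 in naive hearts and Birc5 in both states had no value after thinning, so these calls were not examined at equal depth. The numbers of higher genes in S55L, 14 in naive and 11 in PP hearts, became 7 and 6 after thinning to the lowest depth, 5 and 5 with the plate column as a term, and 9 and 7 in fits of the compared groups only. Some of the genes were not tested after thinning or in the fits of the compared groups. In the latter, 2618 of 10936 genes in naive and 1426 of 10994 genes in PP hearts were higher. Without plate rows A and H, 7 cell cycle genes were higher in PP hearts, where 1613 of all 12650 genes were higher. Leaving out 1 library gave 9 to 14 higher genes in naive hearts, with 9 without S55L naive 5, and 9 to 14 higher and 1 to 2 lower genes in PP hearts, with 2 lower without S55L PP 1. Of the 11738 to 11919 genes tested in those naive fits, 2341 to 2515 were higher. In PP hearts 1621 to 2077 of 11997 to 12211 genes were higher. The number of lower genes in naive hearts, 1, became 2 without the filter, with limma voom, in the fit of the compared groups only and without plate rows A and H. In PP hearts it became 2 with limma voom, without plate rows A and H and with the replicate block in the compared groups only. Without the filter, 1 gene was higher and 1 lower in WT PP against WT naive hearts, and 1 higher in S55L PP against S55L naive hearts. The direction of Ccnd2 in PP hearts reversed with the plate column as a term (log2 fold change -0.0189, adjusted p = 0.972), a fit that rests on WT PP 1. The replicate block gave 14 higher and 1 lower in naive hearts and 11 higher and 1 lower in PP hearts. Of all 11945 genes, 2753 were higher and 2722 lower in naive, and 2104 higher and 2018 lower in PP hearts. In the fit over all groups the block ended the PP call of Mcm2 (adjusted p = 0.0533), added that of Pcna and changed no other call in the genotype comparisons. In the compared groups only, it ended the PP calls of Mcm2 (adjusted p = 0.0577), Prc1 (adjusted p = 0.0649) and Tpx2 (adjusted p = 0.0699) and added those of Pcna and Ccnd3, the latter lower. No paired analysis was possible for the diets because the groups share no replicate number. Scaling to total counts gave 19 higher genes in naive and 16 in PP hearts, where 4013 and 3458 of all 11945 genes were higher. It moved the median of all genes by 0.25 in naive and 0.27 in PP hearts. Without the filter the median moved by 0.13 in naive hearts. The causes of these changes were not tested. Alternatives based on plate rows and limma voom, and the block in the compared groups only, were chosen after seeing the data. With 0 to 9 reads per WT naive library, the mitotic genes other than Cenpf and Top2a are limited by depth.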
